A study of Mus musculus with 12 samples.

Results

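The genes described here encode the proteins of the cytosolic ribosome. They were chosen by symbol, as every entry beginning with Rpl or Rps directly followed by a digit, together with Rplp0, Rplp1, Rplp2 and Rpsa, leaving out symbols that contain -ps and the Rps6k kinases. The rule took 88 of the 23282 entries in the count files and used no measured value. Of these, 31 were proteins of the small subunit, 43 of the large subunit and 3 of the P stalk, and the other 11 were Rpl3l, Rpl7l1, Rpl10l, Rpl22l1, Rpl36al, Rpl39l, Rps4l, Rps27l, Rps27rt, Rpl37rt and Rps19bp1, which are paralogs, retrocopies (genes copied back into the genome from an mRNA) or, for Rps19bp1, a gene that is no ribosomal protein.

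Skin of male wild-type C57BL/6J mice, 5 weeks old at the start, was compared between 5 mice with atopic dermatitis-like lesions on standard chow (AD) and 7 mice with such lesions on a 60 kcal% high-fat diet (called HF + AD in the study and labelled AD+OB). Both groups had received 0.5% DNCB, a hapten that provokes eczema, on the back 3 times a week for 6 weeks, and the high-fat diet lasted 10 weeks in all, so that diet and obesity were the labelled difference. Whole skin was used, in which fewer cells of a type and less RNA per cell cannot be told apart. The authors deposited raw counts, with 1 library per mouse, from a method that sequences mRNAs at their 3′ ends.

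The ribosome joins a small subunit, which holds the mRNA and reads its codons, to a large subunit, which links amino acids and lets the new chain leave through a tunnel. Its proteins are made in nearly equal numbers in every cell. Their mRNAs are among the most abundant of a cell, and most start with a run of pyrimidines after a cytosine (a 5′ terminal oligopyrimidine tract, or TOP), through which mTORC1 and Larp1 control their translation.

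Total counts lay between 9746937 and 13462434 per library, and a count of 0 allows up to 3 counts, or 0.223 to 0.308 CPM (a gene's count scaled to its library). Since no molecular identifiers are described, such limits hold for the counting of reads alone. Entries with a read numbered 13100 to 15063 in the AD libraries and 15522 to 16677 in the AD+OB libraries, without overlap. Over the genes that are no members, AD 1 and AD 2 stood apart from the other libraries on the first and second principal components (31.0% and 22.0% of the variance), and AD+OB 1, 2 and 4 had the highest first component. The count of members called is therefore also given without these libraries. Krt14, a keratin of the epidermis, was at 545 CPM or more in every library of this tissue.

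RefSeq start sites (GRCm38.p6) were at hand for 67 of the 88 members, with 79 promoters. The windows shown run from 10 bases before to 20 bases from the annotated start, with the first run of at least 5 pyrimidines that begins with C within 5 bases of the start in capitals. They were chosen to show such a run in members that were later found lower (Rpl7a, Rps9, Rpl12) and higher (Rps2) in the AD+OB mice, a member found higher that has none at its annotated start (Rps16), and Rps27 beside its retrocopy Rps27rt.
Rpl7a (chr2:26910797-26910826, plus strand): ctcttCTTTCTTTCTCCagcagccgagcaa
Rps9 (chr7:3704031-3704060, plus strand): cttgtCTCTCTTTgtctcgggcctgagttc
Rpl12 (chr2:32961702-32961731, plus strand): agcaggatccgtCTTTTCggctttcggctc
Rps2 (chr17:24720053-24720082, plus strand): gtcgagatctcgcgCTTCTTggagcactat
Rps16 (chr7:28350679-28350708, plus strand): ttctgtcgtgacgtagcactcaatgcgcct
Rps27 (chr3:90213629-90213658, minus strand): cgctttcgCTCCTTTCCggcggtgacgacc
Rps27rt (chr9:114982720-114982749, minus strand): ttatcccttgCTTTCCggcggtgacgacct
The last pair shares 19 of the 30 bases in 1 run, although the retrocopy lies on another chromosome and has 1 exon. Such a pyrimidine run was found in 32 of the 79 member promoters (40.5%) and in 18.3% of all 32851 promoters. A match depends on where the start is annotated, and no match says only that these letters are not in this window. Among the ribosomal proteins proper, it was present in 1 of 5 promoters of members called higher, 5 of 12 of those called lower and 23 of 50 of those not called. The letters CCGGAAG, the core of a binding site of ETS factors, stood on either strand within the 250 bases before and 50 after the start in 34.2% of member promoters and 8.86% of all promoters.

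As a group, the ribosomal protein genes did not move one way. Of the 87 members with enough counts to be tested, 6 were higher and 11 lower in the AD+OB mice at an adjusted p under 0.05 (edgeR's quasi-likelihood test, Benjamini-Hochberg adjustment over all 14163 genes tested), and 70 did not pass. With each library corrected for its trend with GC content, the split was 3 higher and 18 lower. These were 24.1% of the members, against 9.39% of all genes. Without that correction, those higher were Rps14, Rps16, Rpl37rt, Rpl10a, Rps28 and Rps2, and those lower were Rps3, Rps23, Rpl7a, Rpl17, Rps9, Rpl12, Rpl13, Rps21, Rps12, Rpl4 and Rpl22. Fold changes of the members called lay between 0.572 and 1.78. The remaining member, Rpl10l, a testis paralog of Rpl10, had 1 read in all 12 libraries.

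Of all genes tested, 9.20% were called (4.43% higher, 4.77% lower), against 19.5% of the members (6.90% higher, 12.6% lower). However, members are highly expressed: 83 of the 87 lay among the 2833 genes with the highest mean CPM (80.6 or more), and of those 22.0% were called, 8.47% higher and 13.5% lower. The members' share of calls was thus near that of other genes of such expression. The same held before adjustment for the members higher at a p under 0.05 (12 members, or 13.8%, against 12.3% of all genes and 18.1% of the 2833), whereas 31 members, or 35.6%, were lower, against 12.8% of all genes and 27.4% of the 2833. Whether that difference exceeds chance was not tested.

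The median log2 fold change (AD+OB against AD) was -0.11 over the members, 0.023 over all genes tested and -0.074 over the 2833 most expressed. Fold changes were below 0 for 51 members and above 0 for 36. The median was -0.11 for the small and -0.16 for the large subunit. Of 31 small-subunit proteins, 4 were higher and 5 lower, and of 43 large-subunit proteins, 1 was higher and 6 were lower. None of the 3 P stalk proteins was called.

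**Figure D1:**
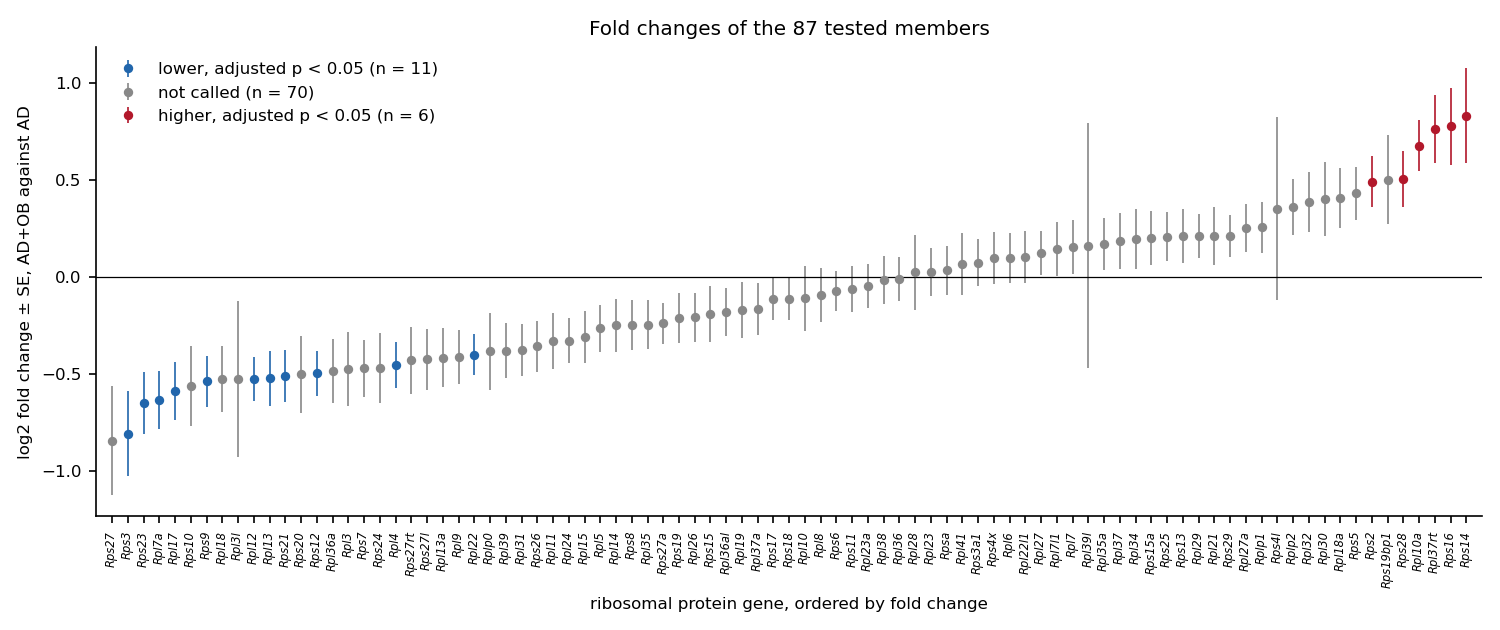
Log2 fold change (AD+OB against AD) with its SE for each of the 87 members tested, ordered by fold change. The 11 members called lower (blue) and the 6 called higher (red) stand at both ends of a gradual order that runs from -0.84 (Rps27, not called) to 0.83 (Rps14).

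Small-subunit proteins gave the largest differences in both directions. Rps3 lines the channel through which mRNA enters the subunit. It was at 2135, 2630.0, 1926, 2692 and 3453 CPM in the 5 AD mice, and its lowest, median and highest values in the 7 AD+OB mice were 899, 1529 and 2271 CPM. All but 1 of the AD+OB mice were below every AD mouse, and the fold change was 0.572 (log2 -0.80, SE 0.22, adjusted p = 0.029). The gene (chr7:99477896-99483738, minus strand, GRCm38) shared no 50-base stretch of its last 300 transcript bases with any other annotated gene. Its call was lost without AD 2, 4 or 5 or without AD+OB 1, 2 or 4, with an adjusted p of up to 0.0795.

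Rps23, at the decoding centre where codons are read, was at 1209, 1677, 1818, 1217 and 1213 CPM in the AD mice and at 651, 894 and 1254 CPM (lowest, median, highest) in the AD+OB mice. It fell by 0.65 on the log2 scale (SE 0.16, adjusted p = 0.0214), with 6 of 7 AD+OB mice below all AD mice. The call was lost without AD 2 or AD 3 (adjusted p of up to 0.0597). Rps9, which reaches towards the mRNA entry and the decoding site, was at 3952, 3519.7, 3466, 3024 and 3398 CPM against 1922, 2293 and 2925 CPM. The groups did not overlap, the fold change was 0.690 (adjusted p = 0.0198), and no single library decided the call.

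Rps12, a protein of the beak of the subunit, was at 734, 764, 923, 692 and 763 CPM in the AD mice and at 457, 541 and 629 CPM in the AD+OB mice. Again there was no overlap, with a log2 fold change of -0.49 (SE 0.12, adjusted p = 0.0162), and every fit without 1 library kept the call. Rps21 was at 435, 483, 537, 436 and 604 CPM against 288, 348 and 432 CPM, also without overlap. Its log2 fold change was -0.51 (adjusted p = 0.0257), and its call was lost without AD 3 or 5 or AD+OB 1, 2 or 4 (adjusted p of up to 0.0641).

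The 4 small-subunit proteins called higher were Rps14, Rps16, Rps2 and Rps28. Rps14, on the platform of the subunit, was at 841, 621, 596, 579.8 and 657 CPM in the AD mice, and at 1587, 1795, 626, 1491, 609, 1088 and 1016 CPM in AD+OB 1 to 7. AD+OB 3 and 5 lay within the range of the AD mice, while the other 5 lay above it. The log2 fold change was 0.83 (SE 0.24, adjusted p = 0.0419), and the call was lost in 9 of 12 fits without 1 library, with all libraries but AD 1, AD+OB 3 and AD+OB 5 deciding it (adjusted p of up to 0.0941).

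Rps16, in the head of the subunit, was at 369.6, 341, 341, 457 and 468 CPM in the AD mice and at 879.8, 859.6, 473, 871, 383, 692 and 581 CPM in AD+OB 1 to 7, with AD+OB 5 within the AD range. Its fold change was 1.71 (log2 0.78, SE 0.20, adjusted p = 0.0246), and the call was lost without AD 2 or 3 or AD+OB 1, 2 or 4 (adjusted p of up to 0.0621). Rps2, which borders the mRNA entry, was at 366, 264, 450.4, 372 and 405 CPM against 447, 523 and 573 CPM, so that 6 AD+OB mice were above all AD mice. Its fold change was 1.41 (adjusted p = 0.0287), but 6 fits without 1 library (AD 2 or 4, AD+OB 1, 2, 4 or 6) lost the call, with an adjusted p of up to 0.0669. Rps28, a small protein near the mRNA exit, was at 153, 113, 156, 155 and 200.1 CPM against 187, 217 and 268 CPM. The fold change was 1.42 (adjusted p = 0.0377), the groups overlapped, and the call was lost in 9 of 12 such fits (all but those without AD 5, AD+OB 3 or AD+OB 5, adjusted p of up to 0.0908).

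Of the 7 large-subunit proteins called, 6 were lower. Rpl12 belongs to the base of the stalk that recruits translation factors. It was at 305, 304, 389, 276 and 313 CPM in the AD mice and at 203, 229.7 and 238 CPM in the AD+OB mice. No values overlapped, and the AD+OB mice lay close together (221 ± 15.5 CPM, SD, n = 7, against 317 ± 42.5, n = 5). The log2 fold change was -0.52 (SE 0.11, adjusted p = 0.0123), and the call held in every fit without 1 library.

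Rpl7a, on the surface of the subunit, was at 241, 394, 296, 373 and 406 CPM against 168, 217 and 280.1 CPM. It fell by 0.63 on the log2 scale (SE 0.15, adjusted p = 0.0177) and kept its call without any 1 library, although AD 1 lay within the AD+OB range. Rpl4 and Rpl17 both line the tunnel through which the new chain leaves. For Rpl4, the AD mice were at 2082, 2082, 2635, 1716 and 1827 CPM and the AD+OB mice at 1309.7, 1522 and 1681 CPM, with no overlap and an adjusted p of 0.0279 (fold change 0.731). For Rpl17, they were at 536, 598, 563, 551 and 613 CPM and at 281, 407 and 503 CPM, again with no overlap (fold change 0.666, adjusted p = 0.0247). The calls of both were lost without AD 2, AD+OB 2 or AD+OB 4, and that of Rpl4 also without AD 3 (adjusted p of up to 0.0659 for Rpl4 and 0.0556 for Rpl17).

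Rpl13 and Rpl22 are among the members with most counted reads. Rpl13 was at 3292, 3434, 2906, 3665 and 3727 CPM in the AD mice and at 1642, 2503 and 2985 CPM in the AD+OB mice, with 6 of 7 below all AD mice (fold change 0.697, adjusted p = 0.0299). Rpl22, an RNA-binding protein that the ribosome can do without because Rpl22l1 replaces it, was at 3127, 3223, 3258, 3226 and 3147 CPM against 2107, 2418 and 2854 CPM. The AD mice lay close together (3196 ± 56.4 CPM, SD, n = 5) and above all AD+OB mice (2425 ± 242, n = 7), with a fold change of 0.759 (adjusted p = 0.0265). Both calls were lost without AD 2, AD 4, AD+OB 2 or AD+OB 4, and that of Rpl13 also without AD 5 (adjusted p of up to 0.0685 for Rpl13 and 0.0606 for Rpl22).

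Rpl10a was the large-subunit protein called higher. It forms the L1 stalk, which helps spent tRNA to leave. The AD mice were at 607, 577, 561, 621 and 657 CPM, and the AD+OB mice at 927, 1028, 830.5, 1196, 727, 1135 and 922 CPM, so that all 7 were above all 5. The fold change was 1.60 (log2 0.68, SE 0.13, adjusted p = 0.00811), the smallest adjusted p of any member, and every fit without 1 library kept the call. However, 87.6% of the 50-base stretches in its last 300 transcript bases (gene at chr17:28328471-28331033, plus strand, GRCm38) occurred in the transcripts of 5 other genes, and how the authors assigned reads that fit several genes is not given in the sources used here. Such sharing was also present for Rps12 (94.8%, 23 genes), Rpl7a (80.8%, 65 genes) and Rps9 (50.6%, 1 gene), and absent for Rpl12. Of the other called members, Rpl13 (84.6%, 13 genes), Rps2 (78.1%, 51 genes) and Rpl17 (56.6%, 35 genes) also shared more than 50% of these stretches, so that their single values are uncertain in the same way.

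**Figure D2:**
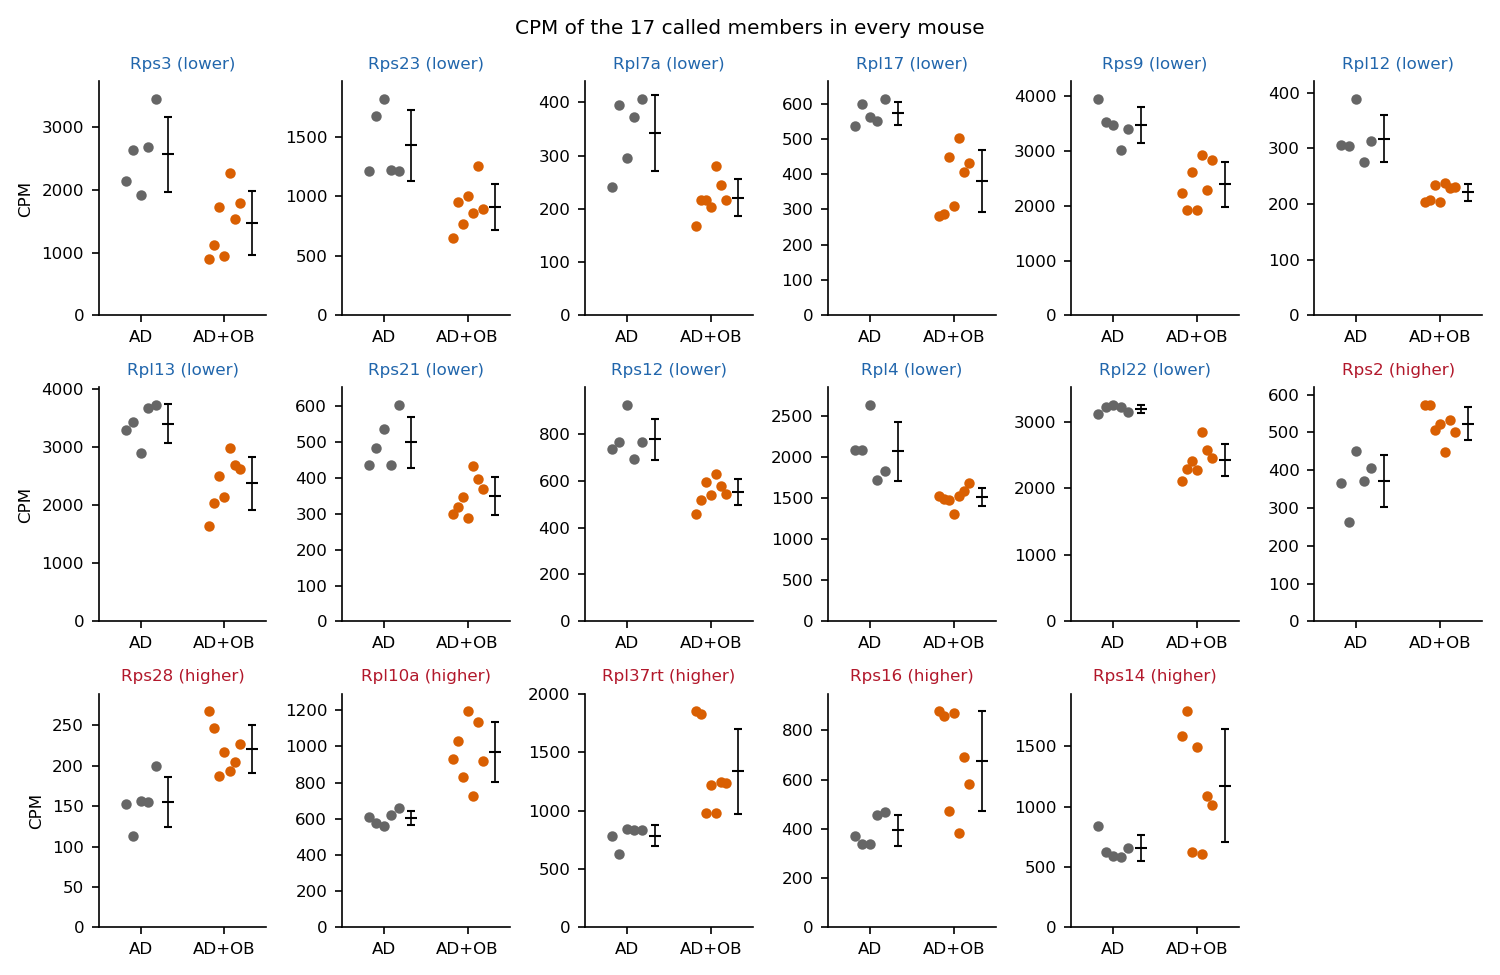
CPM (linear axis from 0) of the 17 called members in the 5 AD and 7 AD+OB mice, 1 point per mouse in order of its number, with the mean and SD of each group to the right. Groups do not overlap for Rpl17, Rps9, Rpl12, Rps21, Rps12, Rpl4, Rpl22, Rpl10a and Rpl37rt, and AD+OB 3 and 5 lie nearest to the AD mice for Rps14 and Rps16.

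Values of the groups did not overlap for 3 members that were higher and 8 that were lower. Among all genes tested, 2.90% and 2.56% had such values (4.38% and 7.70% among the 2833 most expressed). Of the 11 members, 9 were called, and the others were Rps29 (log2 fold change 0.21, adjusted p = 0.231) and Rpl31 (-0.38, adjusted p = 0.0897), both named after their values were seen.

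Of the 5 members of highest mean CPM, Rps9, Rpl13 and Rpl22 were called lower (log2 fold changes -0.54, -0.52 and -0.40). The others, Rps20 (below 0) and Rplp1 (0.26), were not called. Rps20, which had the most reads of all members, was at 5816, 6281, 5304, 5925 and 7036 CPM in the AD mice, and at 2716, 2698, 5547, 3240.0, 6225, 4498 and 5152 CPM in AD+OB 1 to 7. The difference, log2 -0.50 (SE 0.20, adjusted p = 0.121), did not pass, and AD+OB 3 and 5 lay within the AD range. Rplp1, an acidic P stalk protein that helps to recruit elongation factors, was at 2960 ± 471 CPM (SD, n = 5) against 3537 ± 482 (n = 7), with an adjusted p of 0.240. Its partner Rplp2 was at 618, 442, 506, 515 and 521 CPM against 534, 624 and 865 CPM (log2 fold change 0.36, adjusted p = 0.120). Rplp0, which anchors both, was at 1535, 2245, 1741, 2973 and 3235 CPM against 1185, 1968 and 2294 CPM (-0.38, adjusted p = 0.244). Thus the stalk's anchor and its acidic partners had fold changes of opposite sign, none past the threshold. Reads of Rplp2 may be split with the entry Rplp2-ps1, which held a mean of 1044 CPM over all mice, against 607 CPM for Rplp2. Summed, they had a log2 fold change of 0.50 (SE 0.17, adjusted p = 0.0676).

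Several members named for a known role beyond translation or in disease did not pass the test. Rpsa, the laminin receptor precursor, was at 993 ± 106 CPM in the AD mice (SD, n = 5) and 1017 ± 145 in the AD+OB mice (n = 7), with an adjusted p of 0.899. Rps6, the substrate of the S6 kinases downstream of mTORC1, was at 529, 497, 503, 429.8 and 484 CPM against 424, 475 and 511 CPM (log2 fold change -0.071, SE 0.10, adjusted p = 0.727). Its values overlapped in nearly their whole range. Rpl5 and Rpl11, which bind Mdm2 when ribosome assembly fails, had log2 fold changes of -0.26 (SE 0.12, adjusted p = 0.179) and -0.33 (SE 0.15, adjusted p = 0.168). Rps19, mutated in Diamond-Blackfan anaemia, had a log2 fold change of -0.21 (SE 0.13, adjusted p = 0.340). Rps27a, made as a fusion with ubiquitin, was at 1267 ± 106 CPM against 1075 ± 82.1 (log2 fold change -0.24, adjusted p = 0.170). Rpl10, a late joining protein of the large subunit, had a log2 fold change of -0.11 (SE 0.17, adjusted p = 0.743), and Rpl38, which favours translation of Hox mRNAs, of -0.014 (SE 0.12, adjusted p = 0.964). Rpl13a, which can silence inflammatory mRNAs after release from the ribosome, was at 2247, 2246, 3734, 1864 and 1971 CPM against 1683, 1740.0 and 2085 CPM (-0.41, SE 0.15, adjusted p = 0.101), with AD 3 far above the others.

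The 11 paralogs, retrocopies and other genes had 1 call among the 10 tested. Rpl37rt, a retrocopy of Rpl37 (chr5:115102923-115110268, minus strand, GRCm38), was at 783, 631, 844, 836 and 838 CPM in the AD mice and at 1855, 1832, 979, 1222, 978, 1244 and 1237 CPM in AD+OB 1 to 7. All 7 were above all 5, and the fold change was 1.70 (log2 0.76, SE 0.17, adjusted p = 0.0144). No 50-base stretch of its last 300 transcript bases was found in another gene, but the rest of its transcript was not searched. Rpl37 itself, named after its values were seen, had a log2 fold change of 0.19 (adjusted p = 0.457), and both summed one of 0.56 (SE 0.14, adjusted p = 0.0230). Every fit without 1 library called Rpl37rt, but that without both AD 1 and 2 did not.

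Rps27 had the lowest fold change of all members without passing the threshold. It was at 348, 455, 284, 504 and 731 CPM in the AD mice and at 124, 165, 319, 177, 445, 266 and 317 CPM in AD+OB 1 to 7 (log2 fold change -0.84, SE 0.28, adjusted p = 0.0681). Its retrocopy Rps27rt was at 497, 563, 479, 624 and 834 CPM against 331, 464 and 599.8 CPM (-0.43, SE 0.17, adjusted p = 0.125). Since 100% of the 50-base stretches at the 3′ end of each occurred in other genes, as their start windows shown above also share bases, single values of this pair are uncertain. Summed, they had a log2 fold change of -0.59 (SE 0.21, adjusted p = 0.0827). Rps27l, a paralog induced by p53, was at 269, 181, 194, 195 and 192 CPM against 105, 156 and 197 CPM (-0.42, SE 0.16, adjusted p = 0.0991).

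Rpl22l1, the paralog of Rpl22, was at 232 ± 42.5 CPM in the AD mice (SD, n = 5) and 249.9 ± 24.9 in the AD+OB mice (n = 7), with an adjusted p of 0.678, while Rpl22 was called lower. The difference between the responses of this pair was not tested. Rpl3l, the paralog of Rpl3 in striated muscle, was at 38.4, 16.1, 8.18, 8.32 and 10.95 CPM in the AD mice against 5.44, 10.8 and 20.6 CPM (-0.52, SE 0.40, adjusted p = 0.455), with AD 1 above all other libraries. Rpl3 was at 876 ± 265 CPM against 632 ± 137 (adjusted p = 0.130). Rpl36al (507 ± 66.0 CPM against 448 ± 53.7, adjusted p = 0.394), Rpl36a (318 ± 54.1 against 227 ± 51.6, adjusted p = 0.0783), Rpl39 (888 ± 98.9 against 684 ± 131, adjusted p = 0.101), Rpl7 (373 ± 53.7 against 416 ± 72.2, adjusted p = 0.526), Rpl7l1 (91.2 ± 13.5 against 101 ± 13.2, adjusted p = 0.570) and Rps4x (473 ± 81.7 against 506 ± 64.6, adjusted p = 0.699) did not pass either. With the fewest reads, Rpl39l ranged from 0.505 to 15.8 CPM in the AD mice and from 2.53 to 11.4 CPM in the AD+OB mice, and Rps4l from 0.725 to 21.6 CPM and from 12.1 to 19.2 CPM. Rps19bp1, which encodes a regulator of the deacetylase Sirt1, was at 29.6 ± 9.28 CPM against 42.0 ± 10.3 (adjusted p = 0.180).

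As a share of all counted reads, the 88 members made up 7.16%, 7.59%, 7.37%, 7.93% and 8.52% in AD 1 to 5. In AD+OB 1 to 7 they made up 6.60%, 7.02%, 7.12%, 6.59%, 7.45%, 7.33% and 7.41%. The ranges overlapped, with means of 7.71% ± 0.53 (SD, n = 5) and 7.07% ± 0.36 (SD, n = 7), and 3 AD+OB mice were within the AD range. The 95% binomial interval (Wilson) of each library was at most 0.0166 percentage points to either side, far less than the spread between mice. Small-subunit proteins took 3.35% ± 0.28 in the AD mice and 2.93% ± 0.24 in the AD+OB mice, and large-subunit proteins with the P stalk 4.12% ± 0.26 and 3.86% ± 0.15. No test was made of these sums.

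**Figure D3:**
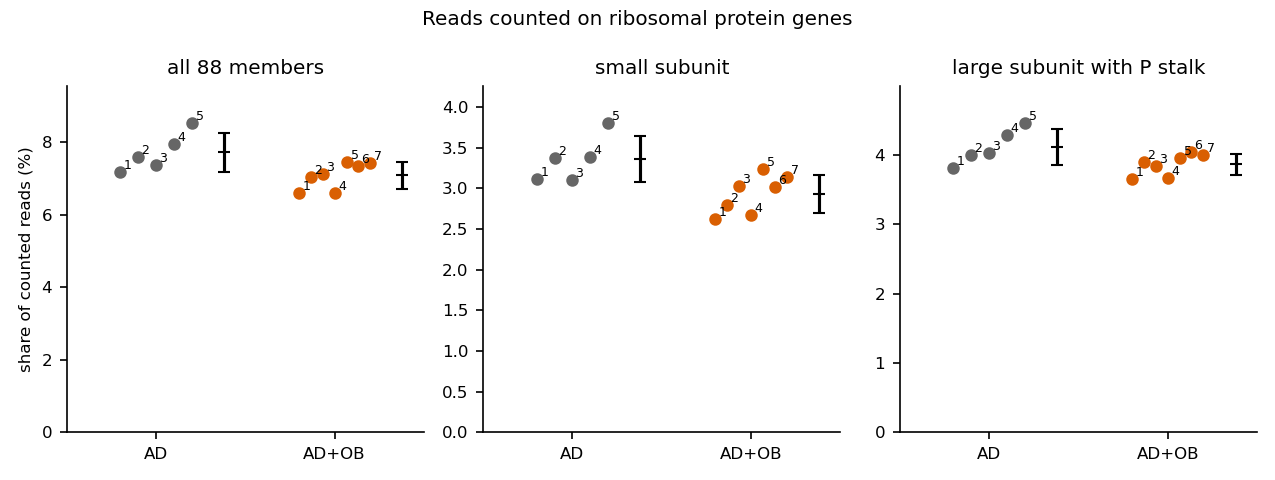
Share of all counted reads (%, axis from 0) on all 88 members, on the small subunit and on the large subunit with the P stalk, 1 point per mouse with its number, and mean and SD beside each group. AD 5 is highest in each panel, AD+OB 1 and 4 are lowest, and the groups overlap.

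Mice of the AD+OB group differed among themselves in how far their ribosomal protein mRNAs lay from the AD mice. The members that differed by more than 1.5-fold from the mean of the AD mice numbered 37, 29, 5, 25, 1, 8 and 7 in AD+OB 1 to 7, and 2 to 6 in each AD mouse. Each AD mouse is part of that mean, which lowers its own count, so the groups are not on the same footing here. For all 11 members called lower, the lowest of the 12 libraries was AD+OB 1, 2 or 4, and for all 6 called higher the highest was one of them. AD+OB 5 differed least from the AD mice, with a median difference of -0.24 (log2) over the 11 members called lower, against -0.75, -0.63 and -0.66 in AD+OB 1, 2 and 4. The median over the 6 called higher was 0.28 in AD+OB 5, and 0.99, 0.95 and 0.81 in AD+OB 1, 2 and 4. Since the same mice chose these members, such medians describe and do not test. The nuclear RNA Malat1, named after its values were seen, was also highest in AD+OB 1, 2 and 4 (11940, 12949 and 14456 CPM, against 2667 to 6840 in the AD mice and 6131 to 9935 in the other AD+OB mice), and its part in the result was not tested. The SD of log2(CPM + 1) between mice was larger in the AD+OB group for 34 members and in the AD group for 53.

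**Figure D4:**
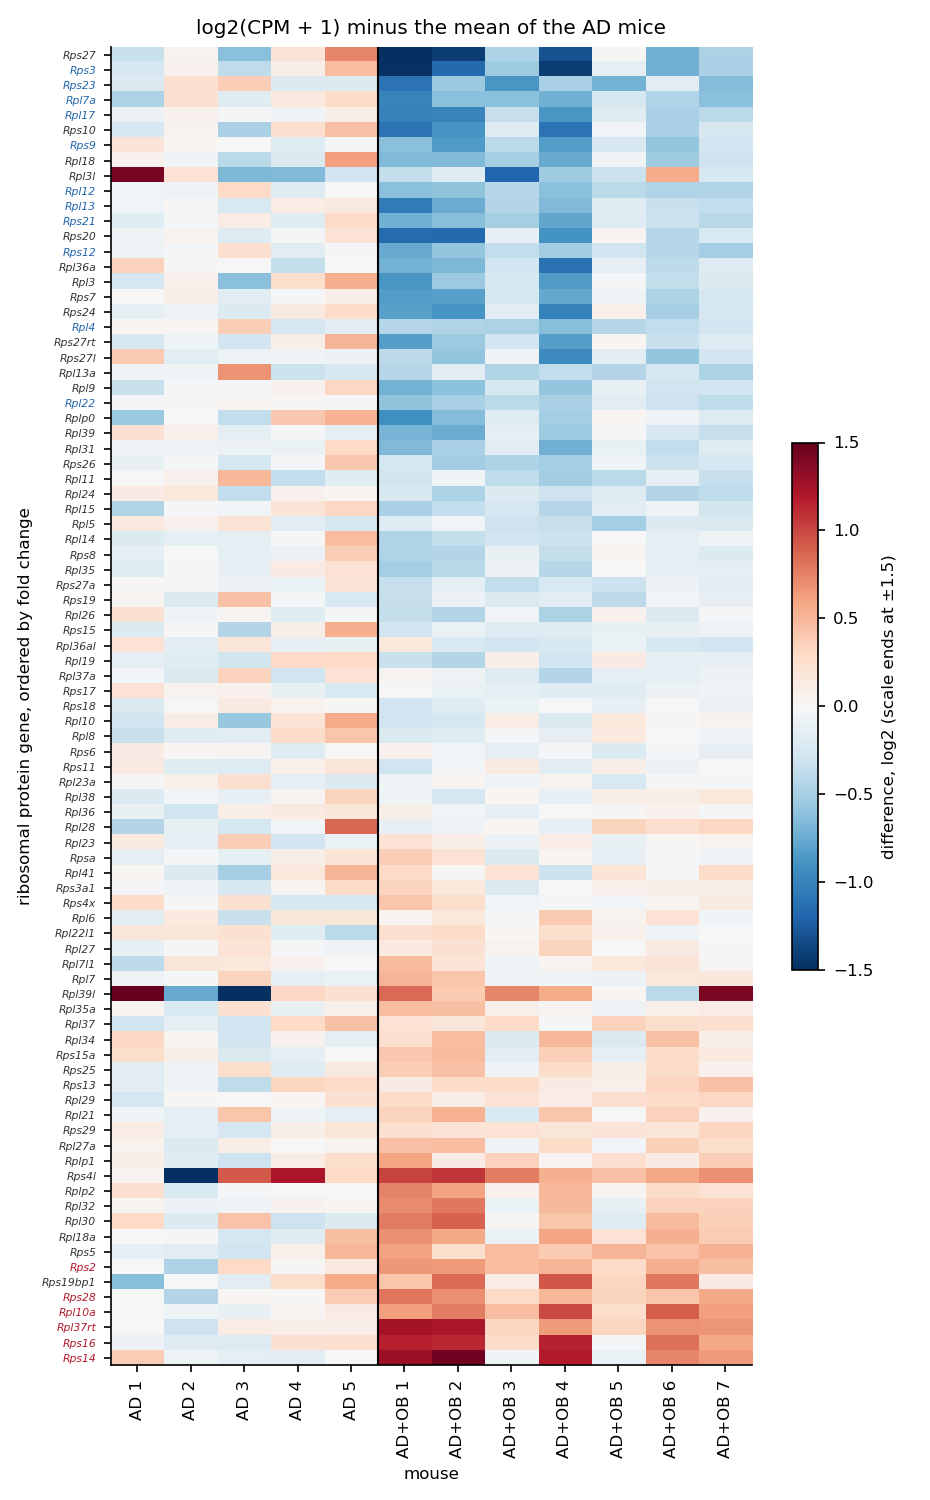
Difference of log2(CPM + 1) from the mean of the AD mice, for 87 members (rows, ordered by fold change, with called members in blue for lower and red for higher) and 12 mice (columns). AD+OB 1, 2 and 4 are darkest at both ends, with 37, 29 and 25 members over 1.5-fold from the AD mean, and AD+OB 5 is palest, with 1. The paralogs Rpl3l, Rpl39l and Rps4l, of low count, also vary widely among the AD mice.

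Without AD+OB 1, 2 and 4, none of the 87 members passed by edgeR's test, and 68 of 13971 genes passed in all (0.487%), although 20 members still had an unadjusted p under 0.05. All 17 called members kept the sign of their fold change there, 16 of them with an unadjusted p under 0.05. Since the mice of this fit had also taken part in choosing the 17, such values describe and do not test. Leaving out AD 1 and 2 gave 1 member higher and 4 lower (5.75% of the members, against 5.96% of all genes). Among fits without 1 library, 7 members were called without AD 2, without AD+OB 2 or without AD+OB 4, 11 without AD 4 or AD+OB 1, and 25 without AD+OB 5. The share of all genes called moved as well. It was 5.56%, 4.57% and 5.66% without AD 2, AD+OB 2 and AD+OB 4 (members 8.05% each). Without AD 4 and AD+OB 1 it was 7.67% and 4.91% (members 12.6% each), and without AD+OB 5 it was 10.4% (members 28.7%). Of the 17 called members, 6 kept their call in all 12 such fits (Rpl7a, Rps9, Rpl12, Rps12, Rpl10a and Rpl37rt).

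**Figure D5:**
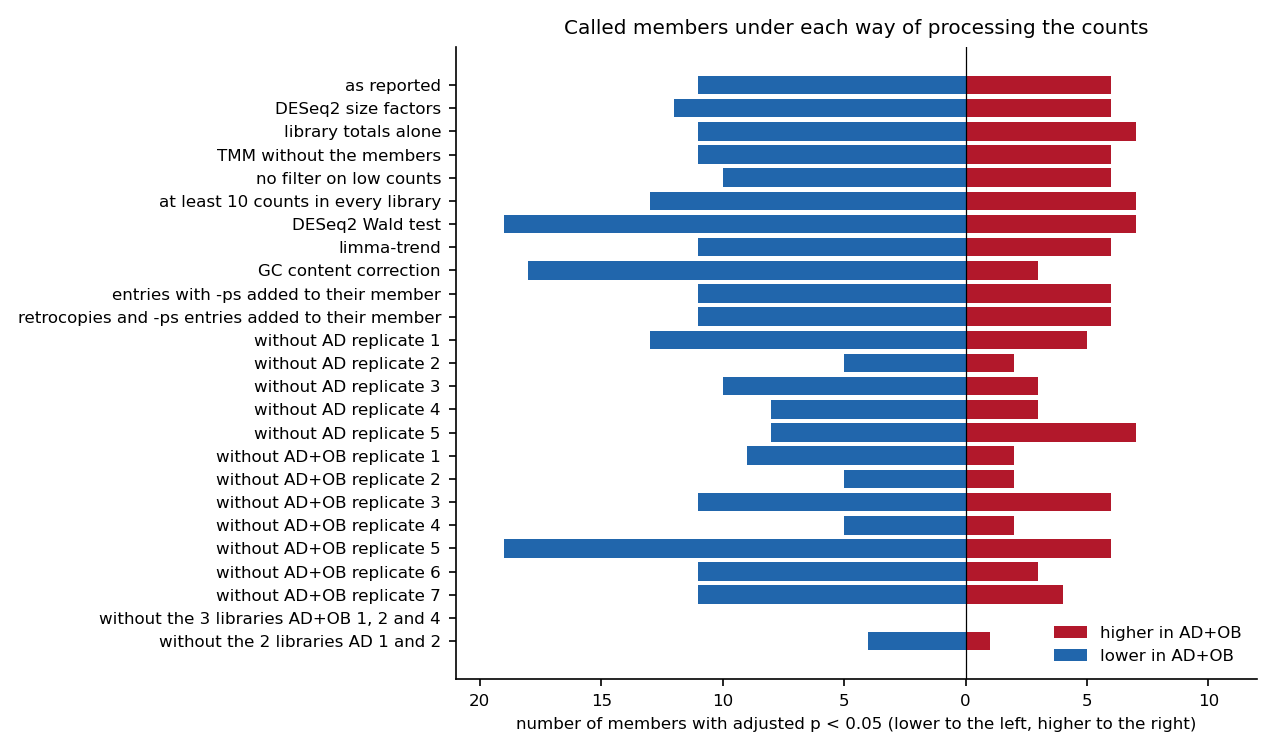
Number of members with an adjusted p under 0.05 that were lower (left) or higher (right) in the AD+OB mice, for the values as reported (11 and 6) and for 24 other ways to process the counts or choose the libraries. The bars are shortest without AD+OB 1, 2 and 4 (0 and 0) and longest to the left with DESeq2 or without AD+OB 5 (19 lower each). Of all genes, 0.487%, 13.7% and 10.4% were called in these fits, in the same order.

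Transcripts of the members called lower had a median length of 937 bases and 6 exons, those called higher 757 bases and 5 exons, and those not called 857.5 bases and 5 exons (GENCODE M21). The median GC content was 51.6%, 55.0% and 50.8%, in the same order. With the GC correction, Rps14, Rps2 and Rps28 were no longer called (log2 fold changes 0.56, 0.33 and 0.26, adjusted p = 0.129, 0.0972 and 0.177). Rpl10a, Rpl37rt, Rps16 and the 11 members called lower kept their call.

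Many members hold genes of small nucleolar RNAs, which guide the modification of ribosomal RNA, in their introns. Such a gene lay within 7 of the 11 members called lower (Rps3, Rpl7a, Rpl17, Rpl12, Rpl13, Rps12 and Rpl4), 2 of the 6 called higher (Rps2 and Rps16) and 21 of the 70 not called. Most members share sequence with other annotated genes, whose type was not looked at. Of the 87, 60 had at least 1 of the 50-base stretches of their last 300 transcript bases in another gene, and 27 had none. Of the 27 without, 1 was higher and 4 lower (Rpl37rt, Rps3, Rpl12, Rpl4 and Rpl22). With the 7 entries named -ps added to the member they derive from, 6 were higher and 11 lower as before.

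Outside the symbol rule, the ribosome's scaffold and a fused ribosomal protein were measured as well. Gnb2l1, or Rack1, a scaffold on the small subunit, was at 4982, 5282, 4782, 5494 and 5484 CPM in the AD mice and at 3256, 4026 and 4693 CPM (lowest, median, highest) in the AD+OB mice, without overlap (log2 fold change -0.41, SE 0.12, adjusted p = 0.0396). Fau, a fusion with a ubiquitin-like protein, had a log2 fold change of -0.036 (adjusted p = 0.922).

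Among the other genes of translation, initiation factors had the most calls. Of 39 tested, 5 were higher and 3 lower, where 9.20% of all genes tested and 22.0% of the 2833 most expressed were called. In either direction, 21 had an unadjusted p under 0.05 (of all genes, 12.3% higher and 12.8% lower, of the 2833, 18.1% and 27.4%). The 4 of largest absolute log2 fold change were all higher, namely Eif6 (1.44, adjusted p = 0.0143), which keeps the subunits apart, Eif2b3 (1.24), Eif2b2 (1.05) and Eif3c (0.95). The 3 called lower, named after their values were seen, were Eif2s3x, Eif4a2 and Eif4e, the cap-binding protein. The median of the list was near 0, with 19 of 39 fold changes above 0. Of 10 elongation factors, 1 was lower (Eef1b2, an exchange factor, -0.40) and none higher, with 5 at an unadjusted p under 0.05. Ribosome assembly and rRNA synthesis had 1 higher and 2 lower of 49, namely Bop1 (0.61), Tsr1 (-0.50) and Npm1 (-0.80), with 14 at an unadjusted p under 0.05. Npm1, a nucleolar chaperone, was at 2320, 2849, 2697, 2447 and 2083 CPM in the AD mice and at 979, 1400.2 and 1844 CPM in the AD+OB mice, without overlap (adjusted p = 0.00787). Other mRNAs with a known TOP start had 3 lower of 19 (Npm1, Eef1b2 and Gas5, a snoRNA host, at -0.67), with 8 at an unadjusted p under 0.05 in either direction. Fold changes were above 0 for 8 of these 19, with a median of -0.044 on the log2 scale, and 1 gene of the list is not reported here. The mTORC1 and S6 kinase genes had 1 higher and 1 lower of 18, which were Larp1, the TOP-binding repressor (0.97, adjusted p = 0.00886), and Rheb, the activator of mTORC1 (-0.64, adjusted p = 0.0433), with 5 at an unadjusted p under 0.05. Mitochondrial ribosomal proteins, added after the data were seen, had none higher and 6 lower of 77 (Mrpl44 fell by 0.99 on the log2 scale, adjusted p = 0.0096), with a median log2 fold change of -0.064 and 28 at an unadjusted p under 0.05. Of 13 mitochondrially encoded mRNAs looked up by their mt- symbols, 0 were found among the entries, so that none was tested.

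Some markers of skin cell types differed between the groups too. Of all genes tested, 4.43% were called higher and 4.77% lower, and of the 2833 most expressed 8.47% and 13.5%. Of the basal keratinocyte list, 3 of 8 were higher (Krt15, Krt14 and Krt5) and the summed level was 3694 to 5427 CPM in the AD mice and 6350 to 11047 CPM in the AD+OB mice. Cycling cell markers had 4 of 10 lower (Top2a, Ccnb1, Mcm3 and Birc5), with sums of 1382 to 1841 CPM and 1029 to 1394 CPM. Skeletal muscle markers had 3 of 12 lower (Myl1, Atp2a1 and Acta1, 1844 to 4258 and 1115 to 2689 CPM). Hair shaft markers had 3 of 11 higher (Krt34, Krt31 and Krt86, 2676 to 5408 and 4120 to 6806 CPM). Endothelial markers had 2 of 7 higher (Cdh5 and Kdr, 77.0 to 133 and 83.9 to 166 CPM), but their median log2 fold change was 0.096. Fold changes were above 0 for 7 of 8 basal keratinocyte, 1 of 10 cycling cell and 1 of 12 muscle markers. They were above 0 for 9 of 11 hair shaft and 4 of 7 endothelial markers. For suprabasal keratinocytes (9 genes tested), leukocytes (11), adipocytes (7) and dermal fibroblasts (8), no gene was called by edgeR, with 1, 3, 1 and 1 at an unadjusted p under 0.05. No listed marker found in the files was at 0 in every library. The part of these cell types in the members' differences was not tested.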

How the data were processed

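Whole dorsal skin of 12 mice (5 AD, 7 AD+OB) was profiled with 1 library each from 500 ng of total RNA, using the Lexogen QuantSeq 3′ kit on a NextSeq 500. The authors deposited raw counts of reads per gene, 1 table per mouse with 23282 entries. The submitters' processing notes name Bowtie2, bedtools and mm10, without versions. The annotation, the use of strand and the handling of duplicates and of reads that fit several genes are not given in the sources used here, and they can move counts between a member and its copies. The kit reads 1 end of each mRNA, so that counts were not divided by length. Where counts of different genes are set side by side, they are numbers of reads and not levels of mRNA.

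Genes were kept by edgeR's filterByExpr, scaled by TMM and tested by the quasi-likelihood test (edgeR 4.0.16, R 4.3.3) with Benjamini-Hochberg adjustment over all 14163 genes and a threshold of 0.05. CPM are TMM-scaled, and log2 levels are log2(CPM + 1). P-values set the difference between the groups against the spread between these mice. The script was tested on simulated data. Alternatives were DESeq2 1.42.0, limma 3.58.1, other scalings and filters, a correction for GC content, a replicate block, summed copies, and leaving out libraries. The members, the gene lists and the tests were chosen with earlier results of these data known. Members were named if called, if among the 5 of highest mean CPM, if in the P stalk or Rpsa, if a paralog or retrocopy or its parent, or for a known role. Of the other lists, up to 4 called genes were named, with Fau and Gnb2l1, and 1 further gene is not reported here. Gene features came from GENCODE M21 and promoters from RefSeq, both on GRCm38. Other groups of the study were not analysed here.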

Additional observations from a re-analysis of the deposited data

Results flagged for a closer look

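Dixon's ratio divides the gap of a mouse to its nearest neighbour by the range of the set. In 92 sets of values (46 named members in each group), 5 held a mouse whose ratio was larger than the 95% critical value. Chance alone flags about 1 in 20 such sets. On the log2(CPM + 1) scale, Rps27l was at 8.08 in AD 1, with the other AD mice between 7.51 and 7.62. Rpl13a was at 11.87 in AD 3, with the others between 10.87 and 11.13, and Rpl7 was at 8.87 in the same mouse, with the others between 8.39 and 8.51. Rpl37rt, which was called higher in the AD+OB mice, was at 9.30 in AD 2, with the other AD mice between 9.61 and 9.72. Rpl36al was at 9.14 in AD+OB 1, with the other AD+OB mice between 8.69 and 8.88.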

How the results depend on the processing

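As reported, 17 members were called, 6 higher and 11 lower. With DESeq2's Wald test 26 were called (19 lower), or 29.9% of the members against 13.7% of all genes. The GC content correction gave 3 higher and 18 lower (24.1% of the members, against 9.39% of all genes). Under it, the median log2 fold change was -0.23 over the members and -0.049 over all genes. Without AD+OB 1, 2 and 4 (an alternative chosen after seeing the data) the numbers called, higher and lower were 0, 0 and 0, with 20 members at an unadjusted p under 0.05, and without AD 1 and 2 (likewise) they were 5, 1 and 4. Of all genes, 0.487% and 5.96% were called in these fits. Calls in the lists of the translation machinery numbered 17 as reported, 1 without AD+OB 1, 2 and 4 and 7 without AD 1 and 2, and those in the marker lists 15, 3 and 9. Without 1 mouse at a time, 7 to 25 members were called, 2 to 7 higher and 5 to 19 lower, with 8 to 19 calls in the machinery lists and 6 to 18 in the marker lists. These were 8.05% to 28.7% of the members, while 4.57% to 10.4% of all genes were called in such fits. With the replicate number as a block, which leaves out AD+OB 6 and 7, 2 members were called (0 higher, 2 lower), with 5 calls in the machinery lists and 7 in the marker lists. These were 2.30% of the members, against 1.32% of all genes. The values gave no sign that the numbers pair the mice. Correlations of the deviations of same-numbered mice lay between -0.082 and 0.039, and 1 of 5 AD mice correlated best with its own number. Such correlations cannot exclude a pairing in the design. Of the named members, whose values alone were followed through the alternatives, 7 changed the sign of their log2 fold change, none of them called. Without 1 mouse at a time, the log2 fold change of Rpl3l lay between -0.73 and 0.071, the log2 fold change of Rpl10 between -0.24 and 0.064, the log2 fold change of Rpl38 between -0.060 and 0.091, the log2 fold change of Rpsa between -0.026 and 0.10 and the log2 fold change of Rpl39l between -0.13 and 1.09. Without AD 1 and 2, Rpl3l was at 0.31, Rpsa at -0.021 and the log2 fold change of Rps4l was -0.12. Without AD+OB 1, 2 and 4, Rpl10 was at 0.032, Rpl38 at 0.087, Rpsa at -0.10 and the log2 fold change of Rpl22l1 was -0.011. Scaling by library totals alone put Rpl38 at 0.029, and the GC correction put Rpsa at -0.044. The cause was not tested. Over the named members, 985 values kept direction and side of the threshold, 108 lost their call, 7 gained one and 20 changed sign. Depth did not limit the core members, each with at least 1091 reads in every library, but Rpl10l could not be tested.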
